A study of Mus musculus with 6 samples.

Results

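The genes described are the Notch receptors Notch1 to Notch4, their ligands Dll1, Dll3, Dll4, Jag1 and Jag2, and the target gene Hes1. They were taken by symbol, and all 10 were found among the 54087 gene rows of the count files. RNA had been measured in germ cells of male C57BL/6 mice at 10 days post partum, in 3 Dnmt3A KO/KO and 3 Dnmt3A WT/WT samples. In both genotypes the cells carried Id4-GFP and were sorted as its bright plus medium fraction, which the labels equate roughly with spermatogonial stem cells. The labels do not say how the KO/KO allele was made, in which cells it was deleted, or whether the samples came from separate animals, so a p-value reflects only how these samples vary, which may be technical. DNMT3A is a de novo DNA methyltransferase, and the comparison asks how the Dnmt3A KO/KO genotype alters the transcriptome of these cells.

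Notch signalling passes between touching cells. A Delta-like or Jagged ligand on the surface of a cell binds a Notch receptor on its neighbour, an ADAM protease and then gamma-secretase cut the receptor, and the freed intracellular domain joins RBPJ and a Mastermind protein in the nucleus to switch on genes such as Hes1. In the mouse testis the pathway is best known in Sertoli cells, the nurse cells of the tubule, where germ cell JAG1 is a ligand and the targets Hes1 and Hey1 restrain the stem cell factor Gdnf.

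The libraries held 42681201 to 61749155 counts on genes, and every pair of them differed beyond sampling noise (chi-square per degree of freedom from 12.4 to 90.0). For KO/KO replicate 1 this value was 34.5 to 35.4 against the WT/WT libraries, and 36.3 and 37.1 against the other KO/KO libraries. Dnmt3a stood at 90.2, 104 and 99.5 CPM in the KO/KO libraries and at 215, 193 and 188 CPM in the WT/WT libraries, where CPM are counts scaled to a common library size with TMM factors. The KO/KO level of Dnmt3a RNA was thus 0.493 of the WT/WT level (edgeR adjusted p = 0.000222), and the labels do not say which part of the gene the KO/KO allele lacks. The germ cell genes Ddx4 and Dazl, both RNA regulators, had at least 304.7 CPM in every library. Id4, whose reporter set the gate, had 86.7, 175.6 and 159 CPM in KO/KO against 36.9, 38.0 and 38.4 CPM in WT/WT.

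Germ cell genes themselves differed between the genotypes. The list of germ cell markers was drawn up with earlier results of these data known, and it includes Id4. Of 12 germ cell markers 4 were called higher and 3 lower in KO/KO, 58.3% against the 14.8% called over all 21314 genes tested, with summed levels of 2221 to 2480 CPM in KO/KO and 2264 to 2348 CPM in WT/WT. Beside Id4 the higher ones were the GDNF receptor genes Gfra1 and Ret, with log2 fold changes of 1.01 and 0.80, and the RNA-binding repressor gene Nanos2, with 0.91. The lower ones were the transcription factor genes Zbtb16 and Sall4, at -0.56 and -0.36, and the ubiquitin hydrolase gene Uchl1, at -0.88 (edgeR adjusted p from 0.000813 to 0.0485 over the 7). Nanos2 lost its call without KO/KO replicate 1 or 3 and without WT/WT replicate 1 or 3 (adjusted p from 0.0521 to 0.102). Sall4 lost its call without any 1 library other than KO/KO replicate 2 (adjusted p from 0.0578 to 0.171). It also lost it under RLE factors (adjusted p = 0.0502), upper quartile factors (adjusted p = 0.0637) and a filter of 1 CPM in 3 libraries (adjusted p = 0.0596). Of the exon bases of Nanos2 49%, and of those of Uchl1 18.1%, lie under genes on the opposite strand. The part of this shift in the changes of the Notch genes was not tested.

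The 4 largest changes among the 10 genes were in ligand genes, and they ran in both directions. Dll4 and Dll3 rose in KO/KO, Jag1 and Dll1 fell, and Jag2 did not pass the test. The proximal promoters of the 4 that changed are shown because CpG dinucleotides are the bases that DNMT3A methylates, and methylation itself was not measured here. Each line is the 250 bases upstream of a RefSeq start on GRCm38.p6, read 5′ to 3′ on the strand of the gene, with every CG in capitals. The windows are chr2:119325534-119325783 on the plus strand for Dll4 and, on the minus strand, chr7:28301786-28302035 for Dll3, chr2:137116521-137116770 for Jag1 and chr17:15376933-15377182 for Dll1. RefSeq gives Dll1 a second start, and the window shown is that of the start nearer to the annotated gene start.
Dll4: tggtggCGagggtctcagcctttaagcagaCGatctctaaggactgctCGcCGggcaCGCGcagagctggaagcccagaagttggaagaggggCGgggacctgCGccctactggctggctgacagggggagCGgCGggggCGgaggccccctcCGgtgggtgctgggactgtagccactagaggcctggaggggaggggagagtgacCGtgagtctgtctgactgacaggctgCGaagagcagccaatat
Dll3: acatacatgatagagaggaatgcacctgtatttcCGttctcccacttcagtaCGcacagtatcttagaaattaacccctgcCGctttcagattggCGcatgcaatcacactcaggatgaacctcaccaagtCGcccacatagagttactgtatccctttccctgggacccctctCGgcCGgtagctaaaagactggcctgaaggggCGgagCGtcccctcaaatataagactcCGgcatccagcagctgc
Jag1: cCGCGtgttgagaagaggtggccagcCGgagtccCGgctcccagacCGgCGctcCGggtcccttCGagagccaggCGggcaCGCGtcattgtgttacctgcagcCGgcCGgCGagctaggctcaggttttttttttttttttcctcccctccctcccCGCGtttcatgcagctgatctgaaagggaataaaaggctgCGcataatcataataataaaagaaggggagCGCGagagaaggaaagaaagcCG
Dll1: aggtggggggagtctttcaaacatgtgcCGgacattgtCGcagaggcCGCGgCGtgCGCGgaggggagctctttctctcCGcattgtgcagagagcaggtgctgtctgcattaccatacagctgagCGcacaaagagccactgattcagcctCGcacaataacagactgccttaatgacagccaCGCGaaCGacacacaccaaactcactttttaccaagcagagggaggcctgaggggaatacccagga

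These windows hold 14 CG in Dll4, 10 in Dll3, 20 in Jag1 and 13 in Dll1, against a median of 6 over 32851 windows of the same length. Between 62.2% and 82.1% of all windows hold fewer CG than each of these 4, with Dll3 at the low end and Jag1 at the high end. The window of the other Dll1 start, chr17:15375824-15376073, holds 21 CG, more than 83.7% of all windows and more than that of Jag1. The letters TGGGAA, the core that RBPJ binds, occur on neither strand in any of the 4 windows shown and in 21.6% of all windows. The letters CACNAG, the N-box of Hes proteins, occur in the Dll4 window, in none of the other 3, and in 36.7% of all windows (both strands, no overlap with TGGGAA). RefSeq windows matched 9 of the 10 genes, all but Hes1.

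Dll4, the ligand best known in the mouse for restraining sprouting of blood vessels, had 901, 1416 and 1823 counts in the KO/KO libraries, against 134, 132 and 60 in the WT/WT libraries. These are 20.1, 28.7 and 28.3 CPM in KO/KO and 3.06, 2.74 and 1.47 CPM in WT/WT. Every KO/KO library lay far above every WT/WT library, a rise of 10.6-fold (log2 fold change 3.40, SE 0.26, edgeR quasi-likelihood adjusted p = 0.000149, n = 3 per genotype). The gene lies on chromosome 2 (119325784 to 119335962, plus strand, GRCm38), and 5.56% of its exon bases lie under the antisense gene Gm14207.

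Dll3, a divergent ligand that in the mouse does not activate receptors on neighbouring cells, stood far lower. It had 1.43, 2.49 and 1.63 CPM in KO/KO against 0.776, 0.852 and 0.809 CPM in WT/WT, from 64, 123 and 105 counts against 34, 41 and 33. The genotypes did not overlap, and the gene rose by 1.18 on the log2 scale (SE 0.31, edgeR adjusted p = 0.0314). The call was lost without KO/KO replicate 2, the highest library, and without any 1 of the WT/WT libraries (adjusted p from 0.0912 to 0.105). Dll3 spans positions 28293553 to 28302238 of chromosome 7.

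Jag1, the ligand that germ cells present to Sertoli cells, had 12.9, 12.3 and 10.6 CPM in KO/KO and 21.9, 19.1 and 26.9 CPM in WT/WT. All KO/KO libraries were below all WT/WT libraries, and the gene fell by 0.92 on the log2 scale (SE 0.15, edgeR adjusted p = 0.00416). Without any 1 library the log2 fold change stayed between -1.04 and -0.78, and every fit called it. Jag1 lies on chromosome 2 as well (137081456 to 137116644, minus strand), with no exon base under another annotated gene.

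Dll1, the ligand of somite and neural development, had 14, 17 and 3 counts in the KO/KO libraries against 58, 53 and 43 in the WT/WT libraries. In CPM these are 0.313, 0.345 and 0.0465 in KO/KO and 1.32, 1.10 and 1.05 in WT/WT. The gene fell by 2.34 on the log2 scale (SE 0.58, edgeR adjusted p = 0.0261). It passed the low-count filter, which asks for 3 libraries, only through the WT/WT group, where it is high. Above that filter were 3 WT/WT and 2 KO/KO libraries, which tilts but does not fix the direction of a call. A fit without the filter also called it lower (log2 fold change -2.34, edgeR adjusted p = 0.0001). With the filter the call was lost without any 1 of the WT/WT libraries (adjusted p from 0.0728 to 0.0891). Of its exon bases 20.5% lie under A930024N18Rik on the opposite strand, which had 0, 2 and 3 counts in KO/KO and 8, 5 and 4 in WT/WT, and no source used here says whether strand was used in counting.

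Jag2, the other Jagged ligand, stood at 37.1, 51.0 and 31.3 CPM in KO/KO and at 40.4, 35.8 and 38.8 CPM in WT/WT. KO/KO replicate 2 was the highest and KO/KO replicate 3 the lowest of all 6 libraries, so the genotypes overlap. The log2 fold change was 0.06 with a 95% interval from -0.31 to 0.42 (edgeR adjusted p = 0.858).

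**Figure D1:**
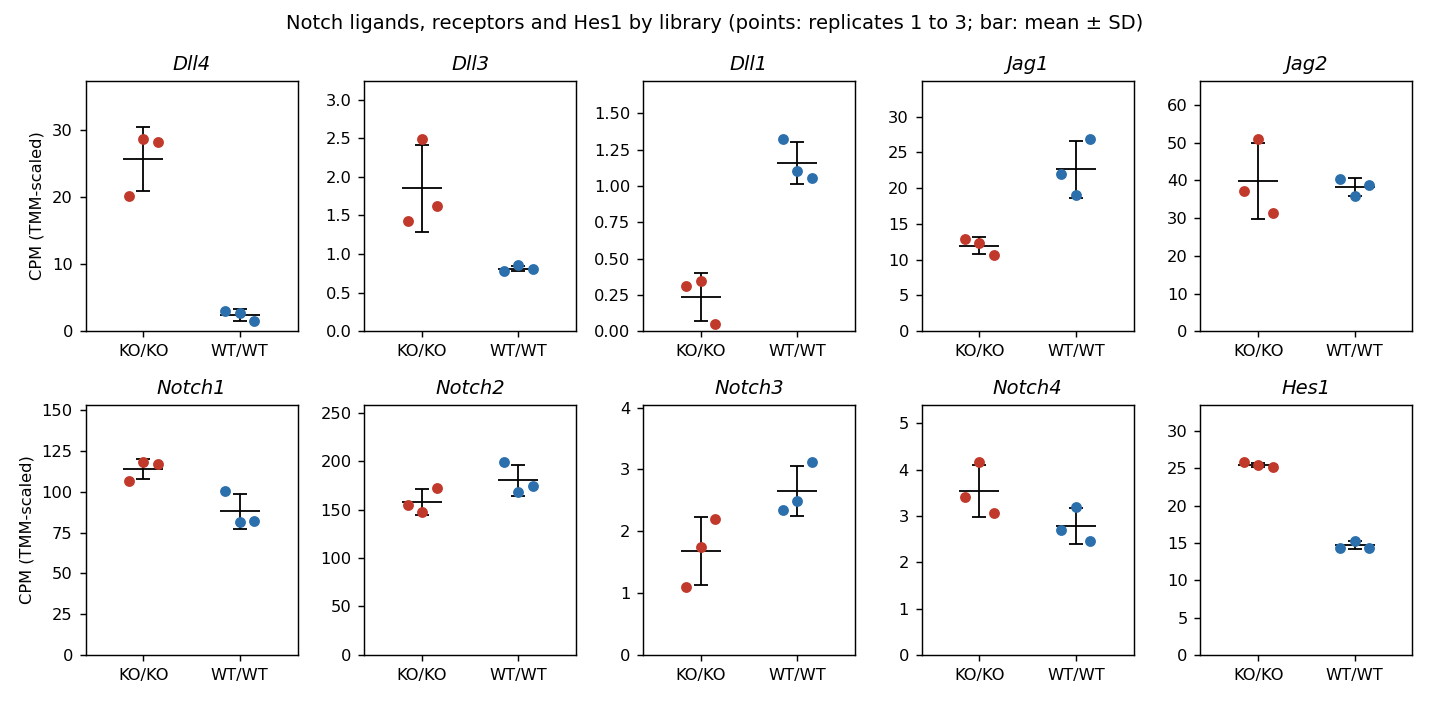
CPM after TMM scaling of the 5 ligands, 4 receptors and Hes1, on linear axes that start at 0. Points are the 3 KO/KO (left) and 3 WT/WT (right) libraries of each gene in order of replicate number, and bars are the mean ± SD. For Dll4, Dll3, Dll1, Jag1, Notch1, Notch3 and Hes1 the genotypes do not overlap.

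Levels of different genes are comparable only per length, so CPM were divided by the kilobases of annotated exon. This length joins the exons of all annotated transcripts of a gene and can exceed that of the transcripts present in these cells. Ranks and shares between genes depend on it, and other lengths were not tried. On that scale (CPM per kb) Jag2 was the highest ligand in WT/WT at 5.50 ± 0.338, followed by Jag1 at 3.89 ± 0.682 and Dll4 at 0.629 ± 0.218 (SD, n = 3). In KO/KO Dll4 had 6.67 ± 1.25 and Jag2 5.72 ± 1.46 CPM per kb, levels whose spreads overlap, and Jag1 had 2.05 ± 0.204. Dll4 made up 39.2%, 41.7% and 51.55% of the summed ligand level in the KO/KO libraries, against 7.25%, 7.35% and 3.44% in the WT/WT libraries. Jag1 made up 16.6%, 11.85% and 12.8% in KO/KO against 34.4%, 33.8% and 41.6% in WT/WT. The summed ligand level was 13.3, 17.85 and 14.2 CPM per kb in KO/KO and 10.95, 9.68 and 11.1 CPM per kb in WT/WT. Its Delta-like part was 5.80, 8.41 and 7.92 CPM per kb in KO/KO and 1.38, 1.27 and 0.915 in WT/WT. Its Jagged part overlapped between the genotypes, at 7.53, 9.45 and 6.32 in KO/KO and 9.57, 8.41 and 10.2 in WT/WT. Dll3 and Dll1 were minor at these levels, together at most 5.78% of the sum in any library.

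**Figure D2:**
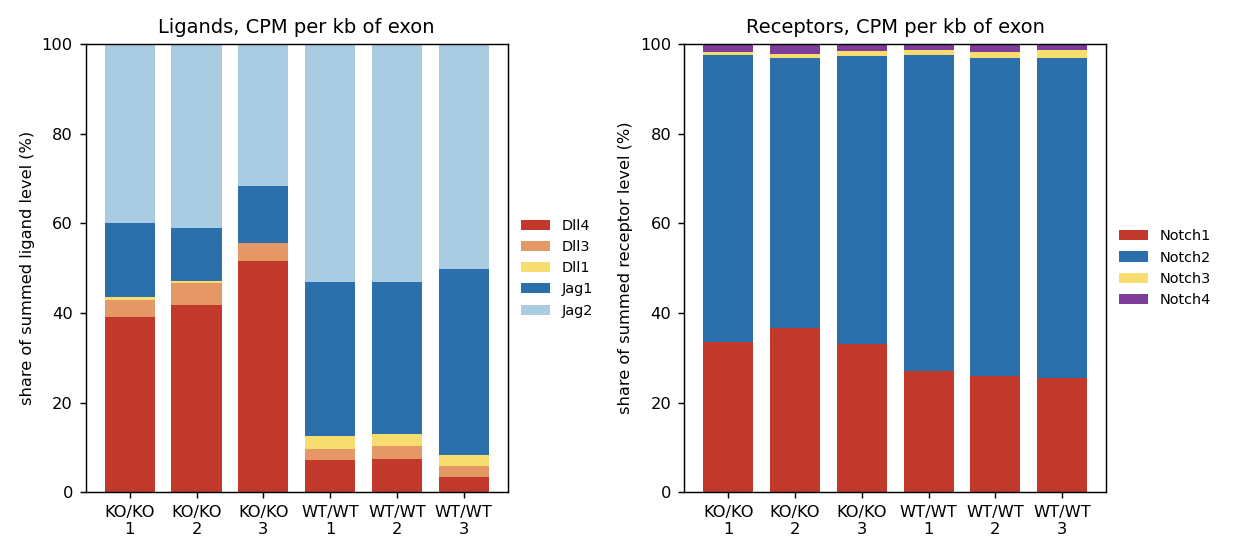
Share of each gene in the summed level of the 5 ligands (left) and the 4 receptors (right), in CPM per kb of exon, for the 3 KO/KO and then the 3 WT/WT libraries. Dll4 is 39.2% to 51.55% of the ligand level in KO/KO and 3.44% to 7.35% in WT/WT, whereas Notch2 is the largest receptor share in all 6 libraries.

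Among the receptors, Notch1 alone passed the test, with a small rise. It had 107, 118 and 117 CPM in KO/KO against 100.3, 81.8 and 82.2 CPM in WT/WT, on chromosome 2 (26457903 to 26516663). The lowest KO/KO library lay just above the highest WT/WT library, and the log2 fold change was 0.37 (SE 0.10, edgeR adjusted p = 0.0341). The call was lost without KO/KO replicate 2 or 3 and without WT/WT replicate 2 or 3 (adjusted p from 0.0502 to 0.164). Of the exon bases of Notch1, 9.76% lie under genes on the opposite strand.

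Notch2 had 154, 147 and 172 CPM in KO/KO against 199, 168 and 174.5 CPM in WT/WT, which overlap (log2 fold change -0.19, 95% interval -0.40 to 0.01, edgeR adjusted p = 0.198). Per kb of exon it was the highest of the 10 genes in both genotypes, at 14.7 ± 1.22 in KO/KO and 16.7 ± 1.48 in WT/WT (SD, n = 3 each). Of the exon bases of Notch2, 5.02% are shared with Gm42820 on the same strand. Notch1 followed among the receptors at 8.02 ± 0.441 and 6.19 ± 0.744 CPM per kb. Notch1 was 33.6%, 36.6% and 33.1% of the summed receptor level in KO/KO and 27.0%, 26.0% and 25.5% in WT/WT. The summed receptor level itself was 22.4, 22.7 and 24.9 CPM per kb in KO/KO and 26.1, 22.1 and 22.7 CPM per kb in WT/WT, which overlap.

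Notch3 and Notch4, best known in the mouse from vascular smooth muscle and endothelium, were rare, together at most 3.225% of the receptor level in any library. Notch3 had 1.09, 1.74 and 2.20 CPM in KO/KO against 2.35, 2.49 and 3.11 CPM in WT/WT. All KO/KO libraries were lower, without passing the test (log2 fold change -0.65, 95% interval -1.30 to 0.01, edgeR adjusted p = 0.173). Of the exon bases of Notch3 6.03% lie under Gm17276 on the opposite strand, which had 10, 3 and 15 counts in KO/KO and 27, 20 and 27 in WT/WT. Notch4 had 3.42, 4.15 and 3.05 CPM in KO/KO and 2.69, 3.20 and 2.45 CPM in WT/WT, which overlap (log2 fold change 0.35, 95% interval -0.14 to 0.83, edgeR adjusted p = 0.327).

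Hes1, the transcriptional repressor that is the classical target of Notch, rose in KO/KO with little spread. It had 25.8, 25.4 and 25.2 CPM in KO/KO against 14.4, 15.3 and 14.3 CPM in WT/WT. The genotypes were widely separated, and the gene rose 1.73-fold (log2 fold change 0.79, SE 0.11, edgeR adjusted p = 0.00156). Leaving out any 1 library gave log2 fold changes from 0.77 to 0.82, each past the threshold. Hes1 lies on chromosome 16 (30064384 to 30067796, plus strand) and shares no exon base with another annotated gene. Its level per kb, 12.5 ± 0.148 in KO/KO and 7.21 ± 0.271 in WT/WT, was exceeded by Notch2 alone among the 10 genes.

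**Figure D3:**
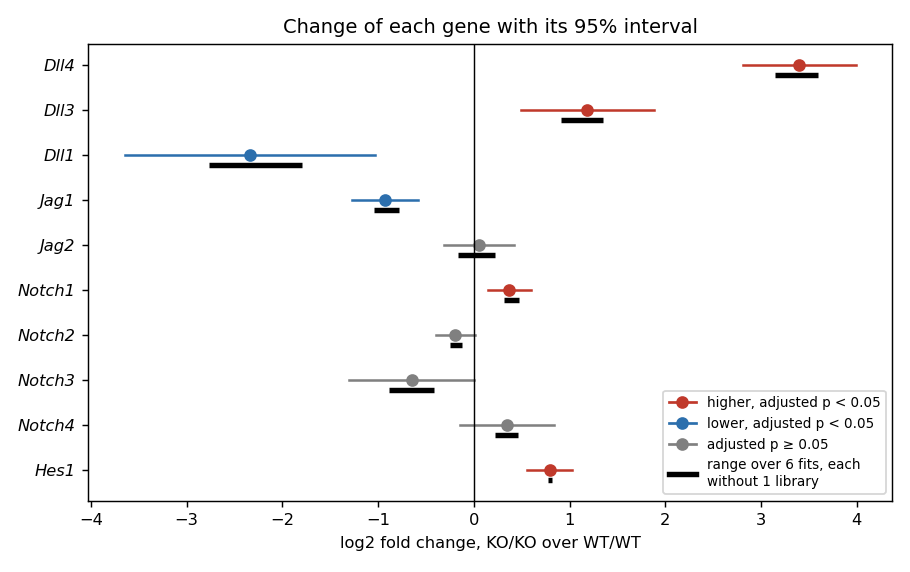
Log2 fold change of KO/KO over WT/WT for each gene, with its 95% interval (thin line) and, as a black bar, the range over 6 fits that each leave out 1 library. Dll4, Jag1 and Hes1 stayed past the threshold in all 6 fits, and the black bar of Jag2 crosses 0.

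Of the 10 genes 4 rose and 2 fell, and 4 did not pass the test. Over all 21314 genes tested 14.8% were called, 8.33% higher and 6.42% lower. Between the genotypes 7 of the 10 genes did not overlap, against 35.8% of all genes tested. Their median log2 fold change was 0.20, beside 0.00 (0.0028) for all genes tested. Dll1, which passed the low-count filter only through the WT/WT group, is counted among those that fell and those that did not overlap. The 10 genes were chosen with earlier results of these data known, so these shares only describe them. Without KO/KO replicate 2, WT/WT replicate 2 or WT/WT replicate 3, 2 of the 10 were called higher, and without any 1 of the WT/WT libraries 1 was called lower.

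Other genes of the pathway changed about as often as genes at large. Of 63 tested genes in 8 role lists 5 rose and 4 fell, 14.3% against the 14.8% of all genes. The role lists were drawn up with earlier results of these data known. Of 9 genes for receptor cleavage, none was called higher or lower by edgeR, 0 had an unadjusted p under 0.05, and DESeq2 called 0. The ADAM protease genes Adam10 and Adam17 stood at 66.3 ± 1.49 and 72.0 ± 3.19 CPM in KO/KO and 70.0 ± 2.60 and 71.0 ± 4.34 CPM in WT/WT (SD, n = 3 each). The gamma-secretase subunit gene Ncstn had a log2 fold change of 0.06 (SE 0.10). The smallest p in this list were those of Aph1c (log2 fold change -0.65, edgeR adjusted p = 0.176) and Aph1a (-0.34, edgeR adjusted p = 0.240).

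Sugar transferases add or extend the O-linked sugars of Notch receptors, and the extension tunes which ligand binds. Of 5 such genes Lfng, the lunatic fringe enzyme, rose and no other passed the edgeR test, 20% against the 14.8% of all genes. DESeq2 called 2 of the 5, with Rfng, the radical fringe gene, as a fall (log2 fold change -0.44, adjusted p = 0.0489 by DESeq2 and 0.0892 by edgeR). Lfng had 11.9, 14.7 and 14.8 CPM in KO/KO against 8.31, 7.97 and 8.04 CPM in WT/WT, which do not overlap (log2 fold change 0.76, SE 0.14, edgeR adjusted p = 0.00733). None of the 4 ubiquitin ligase genes that drive ligand endocytosis passed the test, with Mib1 nearest, at 125 ± 14.5 CPM in KO/KO and 150.2 ± 6.37 CPM in WT/WT (edgeR adjusted p = 0.0914). By an unadjusted p under 0.05 there were 2 of these 4, Mib1 and Neurl1a, and DESeq2 called 0.

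Of 9 genes for receptor turnover, Numbl and Nedd4 fell and Dtx3 rose, 33.3% against the 14.8% of all genes. Numbl, a relative of the Notch inhibitor Numb, had 21.2, 18.9 and 15.8 CPM in KO/KO against 32.5, 32.5 and 34.4 CPM in WT/WT (log2 fold change -0.83, SE 0.13, edgeR adjusted p = 0.00267). The ubiquitin ligase gene Nedd4 fell to 369 ± 39.9 CPM in KO/KO, against 510.1 ± 18.2 CPM in WT/WT (edgeR adjusted p = 0.00780). Numb itself had 66.9 ± 7.30 CPM in KO/KO and 63.5 ± 1.47 CPM in WT/WT (edgeR adjusted p = 0.655). Dtx3, of the Deltex ubiquitin ligase family, rose to 10.1 ± 2.48 CPM in KO/KO, against 4.78 ± 0.972 CPM in WT/WT (edgeR adjusted p = 0.0131). It no longer passed when WT/WT replicate 2 (adjusted p = 0.0569) or 3 (adjusted p = 0.0574) was left out.

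In the nucleus, Rbpj, the DNA-binding partner of the Notch intracellular domain, had 103, 78.7 and 82.7 CPM in KO/KO and 101, 100.4 and 101 CPM in WT/WT. It did not pass the test with all libraries (log2 fold change -0.19, SE 0.11, edgeR adjusted p = 0.262) but did without KO/KO replicate 1, where the log2 fold change was -0.31 (adjusted p = 0.0422). Of 9 genes for nuclear activation 1 rose, 11.1% against the 14.8% of all genes. It was the histone acetyltransferase gene Kat2b, at 45.0 ± 7.02 CPM in KO/KO and 26.5 ± 3.31 CPM in WT/WT (edgeR adjusted p = 0.00683). Of 14 genes for nuclear repression, the Groucho-type corepressor Tle2 rose and its relative Tle3 fell by edgeR, and DESeq2 called 3. The edgeR calls were 14.3% of the 14, against the 14.8% of all genes. Tle2 had 21.3 ± 1.96 CPM in KO/KO and 12.3 ± 2.16 CPM in WT/WT (edgeR adjusted p = 0.00765). Tle3 had 254 ± 11.9 CPM in KO/KO and 356 ± 13.8 CPM in WT/WT (edgeR adjusted p = 0.00254).

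Of 6 further targets 1 rose, 16.7% against the 14.8% of all genes. Nrarp, a feedback inhibitor of Notch, had 17.2, 17.9 and 19.9 CPM in KO/KO against 12.2, 11.9 and 11.9 CPM in WT/WT, which do not overlap (log2 fold change 0.61, SE 0.12, edgeR adjusted p = 0.00921). It no longer passed when WT/WT replicate 2 was left out (adjusted p = 0.0590). Of its exon bases 79.4% lie under Gm38287 on the opposite strand, so without a known strand setting the reads of Nrarp and Gm38287 cannot be told apart over that stretch. Hey1, a repressor related to Hes1, had 6.08 ± 1.20 CPM in KO/KO and 6.87 ± 0.327 CPM in WT/WT (edgeR adjusted p = 0.573). Heyl, its relative, had 1.88 ± 0.496 and 2.56 ± 0.313 CPM (KO/KO and WT/WT, edgeR adjusted p = 0.303). The remaining targets Hes5, Hes7 and Hey2 averaged at most 1.53 CPM in either genotype. Of 7 tested non-canonical ligands 1 fell, 14.3% against the 14.8% of all genes. It was Dlk1, an imprinted relative of Delta, at 7.70 ± 2.78 CPM in KO/KO and 20.3 ± 4.16 CPM in WT/WT (log2 fold change -1.39, SE 0.26, edgeR adjusted p = 0.00770). The eighth, Mfap5, had at most 4 counts in any library.

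**Figure D4:**
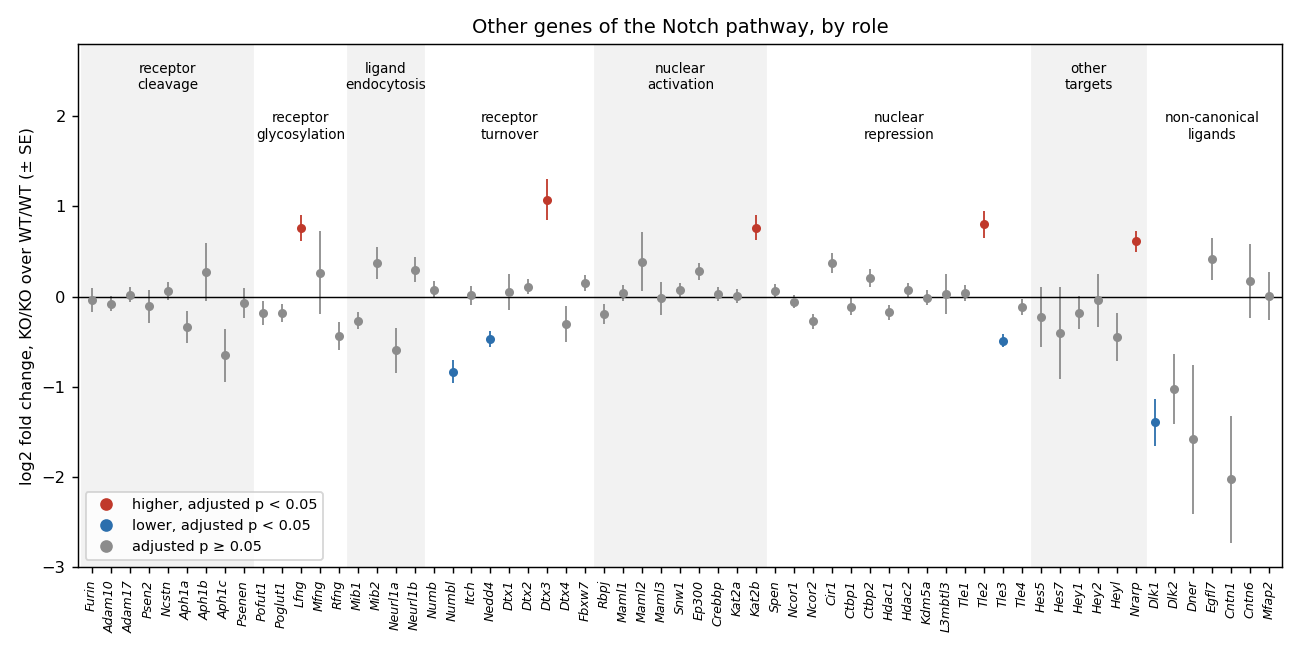
Log2 fold change of KO/KO over WT/WT with its SE for the 63 tested genes of the pathway outside the 10, ordered by role. Lfng, Dtx3, Kat2b, Tle2 and Nrarp passed the test with higher levels in KO/KO, and Numbl, Nedd4, Tle3 and Dlk1 with lower levels.

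Genes of other cell types were read in the same libraries, because Dll4, Notch3 and Notch4 are expressed in vessels and Hes1 in Sertoli cells. These marker lists too were drawn up with earlier results of these data known. In bulk RNA, fewer cells of a type and less RNA per cell cannot be told apart. Of 17 endothelial markers 13 were tested, of which 7 rose and 1 fell, 61.5% against the 14.8% of all genes tested, and the summed level of all 17 was 198 to 286 CPM in KO/KO and 93.6 to 109 CPM in WT/WT. The 7 were Cdh5, Vwf, Kdr, Flt1, Plvap, Eng and Sox18, with log2 fold changes from 2.98 for the junction gene Cdh5 down to 0.71 for the transcription factor gene Sox18. Sox18 lost its call without KO/KO replicate 2 or 3 and without any 1 of the WT/WT libraries (adjusted p from 0.0601 to 0.139). Erg, an endothelial transcription factor gene, fell by 0.98 on the log2 scale (edgeR adjusted p = 0.0350), and this call was lost without KO/KO replicate 2 and without any 1 of the WT/WT libraries (adjusted p from 0.0506 to 0.107).

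Several other defining endothelial markers were not called, or were too low to be tested. Pecam1 had 5.23, 3.77 and 3.12 CPM in KO/KO and 3.24, 4.88 and 2.696 CPM in WT/WT. Tek had 2.77, 2.29 and 3.01 CPM in KO/KO and 2.99, 3.39 and 2.75 CPM in WT/WT (edgeR adjusted p = 0.754 for Pecam1 and 0.635 for Tek). Below the low-count filter, and so not tested, Tie1 had 11, 7 and 4 counts in KO/KO and 6, 6 and 2 in WT/WT, and Emcn 1, 0 and 0 in KO/KO and 6, 3 and 0 in WT/WT. Also not tested, Esam had 3, 2 and 13 counts in KO/KO and 8, 22 and 2 in WT/WT, and Sox17 3, 3 and 4 against 11, 7 and 1. Ptprb was not called (log2 fold change -0.42, edgeR adjusted p = 0.436). Robo4 had 8, 10 and 47 counts in KO/KO and 49, 46 and 24 in WT/WT (log2 fold change -1.22, edgeR adjusted p = 0.187). Robo4 passed the low-count filter only through the WT/WT group. Cldn5, a tight junction gene, had 18, 23 and 28 counts in KO/KO and 10, 5 and 1 in WT/WT, which do not overlap in CPM (edgeR adjusted p = 0.0914). Cldn5 passed the low-count filter only through the KO/KO group, where it is high. The part of endothelial cells in the rise of Dll4 was not tested.

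None of 16 Sertoli markers passed the test by edgeR, 0 had an unadjusted p under 0.05, and DESeq2 called 0. Their summed level was 658 to 956 CPM in KO/KO and 648 to 926 CPM in WT/WT. The Sertoli genes Sox9 and Clu were present in all libraries, Sox9 at 60.5, 75.6 and 86.3 CPM in KO/KO and 117, 84.4 and 66.7 CPM in WT/WT. Summed levels were 14.0 to 20.4 CPM in KO/KO and 9.95 to 24.6 CPM in WT/WT for 7 myoid markers, and 41.7 to 61.1 CPM in KO/KO against 93.7 to 114 CPM in WT/WT for 11 Leydig and stromal markers. Of the 5 myoid markers tested edgeR called 0 and DESeq2 called 1. By an unadjusted edgeR p under 0.05 there was 1, Des, with all KO/KO libraries lower (log2 fold change -1.37, edgeR adjusted p = 0.0846). Most of the gap in the Leydig and stromal sum lay in the collagen gene Col1a1, at 24.3 ± 6.05 CPM in KO/KO and 66.3 ± 10.3 CPM in WT/WT, and the growth factor receptor gene Pdgfra, at 12.9 ± 0.476 CPM in KO/KO and 19.6 ± 3.17 CPM in WT/WT (SD, n = 3 each). These 2 of the 8 tested were called lower (edgeR adjusted p = 0.00117 for Col1a1 and 0.0210 for Pdgfra), 25% against 14.8% of all genes. With WT/WT replicate 1 or 2 left out Pdgfra no longer passed (adjusted p = 0.0924 and 0.106). Star, the cholesterol carrier gene of Leydig cells, had 5.32, 2.92 and 3.94 CPM in KO/KO and 5.36, 4.32 and 6.20 CPM in WT/WT, which overlap, and the Leydig genes Cyp17a1 and Insl3 were below the low-count filter. For 7 macrophage markers the summed levels were 3.85 to 4.87 CPM in KO/KO and 1.32 to 2.25 CPM in WT/WT, and Cd68 alone, a lysosomal membrane gene, had 4.07 ± 0.646 CPM in KO/KO and 1.48 ± 0.278 CPM in WT/WT (edgeR adjusted p = 0.00402). Ptprc, the other one tested, had 11, 10 and 1 counts in KO/KO and 5, 18 and 17 in WT/WT, and Csf1r, Adgre1, C1qa, C1qb and Lyz2 had at most 4 counts in any library.

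Genes next to the 6 called genes were read for changes shared along the chromosome. Of 11 flanking protein-coding genes matched by symbol 1 was called, 9.09% against 14.8% of all genes, Cpn2, a carboxypeptidase subunit gene 188582 bases from Hes1, with 18, 36 and 31 counts in KO/KO and 5, 3 and 7 in WT/WT. It passed the low-count filter only through the KO/KO group. The neighbours of Dll4 are Vps18 and Chac1. Vps18, a vesicle trafficking gene 27331 bases away, had 26.8 ± 3.68 CPM in KO/KO and 23.4 ± 2.08 CPM in WT/WT (edgeR adjusted p = 0.349). Chac1, a glutathione-degrading enzyme gene 15267 bases away, had 1.05, 1.84 and 1.57 CPM in KO/KO against 0.753, 0.831 and 0.613 CPM in WT/WT, which do not overlap (log2 fold change 1.02, SE 0.33, edgeR adjusted p = 0.0675). Slx4ip, which ends 9506 bases from Jag1, had a log2 fold change of -0.0009 (95% interval -0.28 to 0.28).

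The genes whose log2 CPM followed each called gene most closely over the 6 libraries were taken from 14985 genes with assigned names. For Dll4 these were Clgn, a chaperone gene of male germ cells, Adgra2 and Cyp4f16 (Pearson r from 0.997 to 0.999). For Hes1 they were the growth factor gene Fgf1, the centrin gene Cetn1 and the matrix gene Matn4 (r from 0.997 to 0.998). For Jag1 they were Safb, Abcc4 and Smtnl2 (r from 0.994 to 0.997). For Notch1 they were Lctl, Btbd8 and Ctdp1, for Dll3 Bbs4, Apol7e and Zfp68, and for Dll1 Prrt1, Tnks1bp1 and Fbxo21 (r from 0.992 to 0.998). With 6 libraries of 2 genotypes such values are common: 685 genes had r over 0.95 with Dll4 and 485 with Hes1.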

How the data were processed

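Whole-number read counts per gene and per transposable element family were deposited for 6 libraries. Per the submitters' processing notes the authors used STAR 2.7.0a and featureCounts 1.5.1 on mm10. No source used here gives the annotation release, the strand setting or how multi-mapping reads were handled, and per the labels' protocols the library kit was a stranded total RNA kit.

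The 1205 transposable element rows (14.1% to 15.5% of all counts) were left out of library sizes and tests. Tests on the 54087 gene rows used edgeR 4.0.16 (quasi-likelihood, R 4.3.3) with TMM factors, filterByExpr (a minimum count of 10, here 0.214 CPM in 3 libraries) and a genotype term. Part of the pathway is not reported here. All p-values are two-sided and adjusted by Benjamini-Hochberg over the 21314 genes tested, with a threshold of 0.05. A log2 fold change's SE was taken as its absolute value over the root of F. The test was checked on simulated data, where it recovered 62.2% of 2-fold and 92.4% of 4-fold changes. These changes were put only into genes above a minimum mean count, with the spread taken from its trend over genes. The recovery therefore does not cover the tested genes with the fewest counts. Smaller changes were not simulated, so a gene without a call may still differ between the genotypes. Alternatives were RLE and upper quartile factors, other filters, DESeq2 1.42.0, limma-voom 3.58.1, a replicate block and leaving out each library.

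The 10 genes and all lists were chosen with earlier results of these data known. Genes named beside the 10 are Dnmt3a, called pathway and endothelial genes, the core protease, gamma-secretase and Rbpj genes, the 2 smallest p of a list with no call, defining markers of other cell types, flanking genes, and the 3 closest patterns, for which 0.5 was added to CPM before log2. The called germ cell markers, Rfng and all Leydig, stromal and macrophage markers but Star and Ptprc were named after their values were seen. So were Numb, Hey1, Heyl, Hes5, Hes7, Hey2, Mfap5, Cldn5, Emcn, Robo4, Ptprb, Esam, Sox17 and Des. Coordinates, exon lengths and overlaps come from GENCODE M21 (GRCm38, the assembly of mm10), and promoters from RefSeq on GRCm38.p6. Figures used matplotlib 3.10.9 (Python 3.11.15).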

Additional observations from a re-analysis of the deposited data

How the results depend on the processing

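The rises of Dll4 and Hes1 and the fall of Jag1 kept their direction and passed the threshold in all 13 alternatives, with log2 fold changes from 3.14 to 3.60, 0.77 to 0.82 and -1.04 to -0.78. Counts of calls among the 10 genes were 4 higher and 2 lower under RLE and upper quartile factors, both other filters, DESeq2 and limma-voom. With a replicate block 2 were higher, since Notch1 (adjusted p = 0.0603) and Dll3 (adjusted p = 0.0518) lost their call. The labels do not say that the numbers pair the samples, so the main test had no block. Deviations of same-numbered samples from their group means correlated at -0.13, 0.05 and 0.06, and those of differently numbered samples at -0.24 to 0.22. With 3 samples per genotype these values cannot decide whether the samples were paired. Without 1 library the 10 genes gave 2 to 4 higher and 1 to 2 lower, the other pathway genes 3 to 6 higher and 4 to 5 lower, and all genes 814 to 1985 higher and 560 to 1380 lower. Without the low-count filter 7 other pathway genes were lower and 7 higher. Among genes without a call the sign turned when 1 library was left out for Jag2 (-0.16 to 0.22), Adam17 (-0.022 to 0.066), Ncstn (-0.0002 to 0.13) and Pecam1 (-0.062 to 0.44). The cause of these moves was not tested. Of 130 values of the 10 genes over the alternatives 116 kept direction and side of the threshold, 13 lost the call and 1 reversed. The median log2 fold change of all genes lay between -0.0085 and 0.0144 in every setting. Counts limit Dll1 most, with 3 in KO/KO replicate 3.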
